A study of Mus musculus with 15 samples.

Results

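This account concerns 40 mouse genes whose products build ribosomes, read in a series of 15 arrays that measured 18193 genes. The genes are a list of nucleolar and pre-ribosomal factors that was drawn up with earlier results of these data known, and each was read by the brightest of its probe sets over the 15 arrays. All 40 were measured, and none was lost to a filter on low values. The study profiled mouse tumours made as a model of small cell lung cancer, an aggressive neuroendocrine lung tumour, to set them beside the human disease. An adenovirus given through the nose carried Cre recombinase into the airways, where it deletes floxed alleles in any cell it enters. The arrays were 3 Rb/p53/p130 tumours (numbers 11 to 13), dissected 6 months after Cre from mice whose tumours had lost Rb, p53 and the Rb relative p130, 10 Rb/p53 tumours (numbers 1 to 10), dissected after 8 to 12 months and lacking Rb and p53, and 2 lungs of wild-type adult mice free of tumours. The loss of Rb and p53 was shared by all 13 tumours, and genotype and age after Cre differed together between the tumour groups. Separate mice are not stated for arrays within a group, so the p-values reflect only how much these samples differ, which may be technical.

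Ribosomes are built mainly in the nucleolus, where RNA polymerase I transcribes the ribosomal RNA precursor. Small nucleolar ribonucleoproteins of the box C/D and box H/ACA kinds then methylate and pseudouridylate that RNA, and assembly factors cut, fold and export the small and large subunits. Many of these genes are known targets of the MYC family (Myc, Mycn and Mycl), transcription factors that bind DNA with their partner Max and that are often amplified in small cell lung cancer.

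The label of the tumours was met by their markers: 11 of 11 measured neuroendocrine genes were called higher in each tumour group, with a mean log2 level of 11.19 to 11.51 in Rb/p53/p130 tumours, 11.05 to 11.87 in Rb/p53 tumours and 5.26 to 5.65 in normal lung. The mean of 7 alveolar type 2 genes, markers of lung epithelium, lay between 10.73 and 11.42 in Rb/p53/p130 tumours, between 9.38 and 12.53 in Rb/p53 tumours and at 13.35 and 13.66 in normal lung. Fewer cells of a type and less RNA per cell cannot be told apart in such bulk samples. The mean of 8 hepatocyte genes was 10.59 in tumour 12, against 6.04 and 6.11 in the other Rb/p53/p130 tumours, 5.64 to 7.98 in Rb/p53 tumours and 5.24 and 5.33 in normal lung. The Gapdh control probe sets, whose 3′ minus 5′ difference grows as RNA or its copy gets shorter, differed by -0.03 to 0.08 in Rb/p53/p130 tumours, by -0.07 to 0.36 in Rb/p53 tumours and by 0.72 and 0.88 in normal lung, so this measure of RNA quality separated lung from tumour. Array medians lay between 6.58 and 6.68, and precision is limited by how few arrays there are.

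Promoter sequences are shown because the MYC family binds the E-box CACGTG, a palindrome that reads the same on both strands. RefSeq promoters (assembly GRCm38.p6, from 250 bases before to 50 after the gene start) were found for 34 of the 40 genes, and 6 of them (17.6%) held CACGTG, against 1559 of 17492 protein-coding genes (8.91%). The windows below are written on the gene's own strand with the E-box in capitals, and the number gives the place of its first base from the gene start. They lie at chr11:72441355-72441376 (+ strand, 40 after the start of Mybbp1a), chr17:71616220-71616249 (+ strand, 17 after that of Wdr43), chr10:88826765-88826789 (- strand, 37 after that of Utp20), chr1:34439696-34439725 (+ strand, at -121 for Imp4), chr11:3963965-3963994 (+ strand, 2 after that of Pes1) and chr6:125131811-125131840 (+ strand, at -60 for Nop2).
Mybbp1a: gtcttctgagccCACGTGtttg
Wdr43: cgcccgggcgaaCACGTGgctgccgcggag
Utp20: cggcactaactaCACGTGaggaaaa
Imp4: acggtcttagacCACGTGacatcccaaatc
Pes1: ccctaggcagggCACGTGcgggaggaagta
Nop2: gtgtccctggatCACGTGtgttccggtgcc
Nop58 and Nop56 had the highest changes against normal lung (below), and their promoter windows held no CACGTG. The 100 bases before their starts lie at chr1:59684906-59685005 (Nop58, + strand) and chr2:130274312-130274411 (Nop56, + strand). A match, or its absence from this window, is a description of letters and no measure of binding.
Nop58: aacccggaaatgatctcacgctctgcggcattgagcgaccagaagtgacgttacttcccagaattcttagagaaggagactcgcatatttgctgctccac
Nop56: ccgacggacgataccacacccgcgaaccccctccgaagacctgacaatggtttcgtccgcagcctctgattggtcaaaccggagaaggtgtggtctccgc

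Some of the ribosome biogenesis genes were called higher in the tumours than in normal lung, and none was called lower. By limma, with p-values adjusted after Benjamini and Hochberg over all probe sets and called at 0.05, 15 of 40 were called higher in Rb/p53/p130 tumours, where 15.3% of all genes were. In Rb/p53 tumours 21 of 40 were called higher, where 18.3% of all genes were. Called lower were 0 of 40 in each, where 15.6% of all genes were in Rb/p53/p130 tumours and 20.5% in Rb/p53 tumours. The median change of the 40 was 0.73 on the log2 scale in Rb/p53/p130 tumours and 0.69 in Rb/p53 tumours, against -0.02 over all genes in each comparison. Among genes read by probe sets brighter than the median, which took in all 40, 23.8% were called higher in Rb/p53/p130 tumours and 28.1% in Rb/p53 tumours, beside 16 and 22 of the 40 in that fit. Both comparisons use the same 2 lungs. Called in both were 14 genes, in Rb/p53 tumours alone 7, and in Rb/p53/p130 tumours alone 1, the large-subunit factor Rrs1, and a call in 1 comparison alone is no test of a difference between them.

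**Figure D1:**
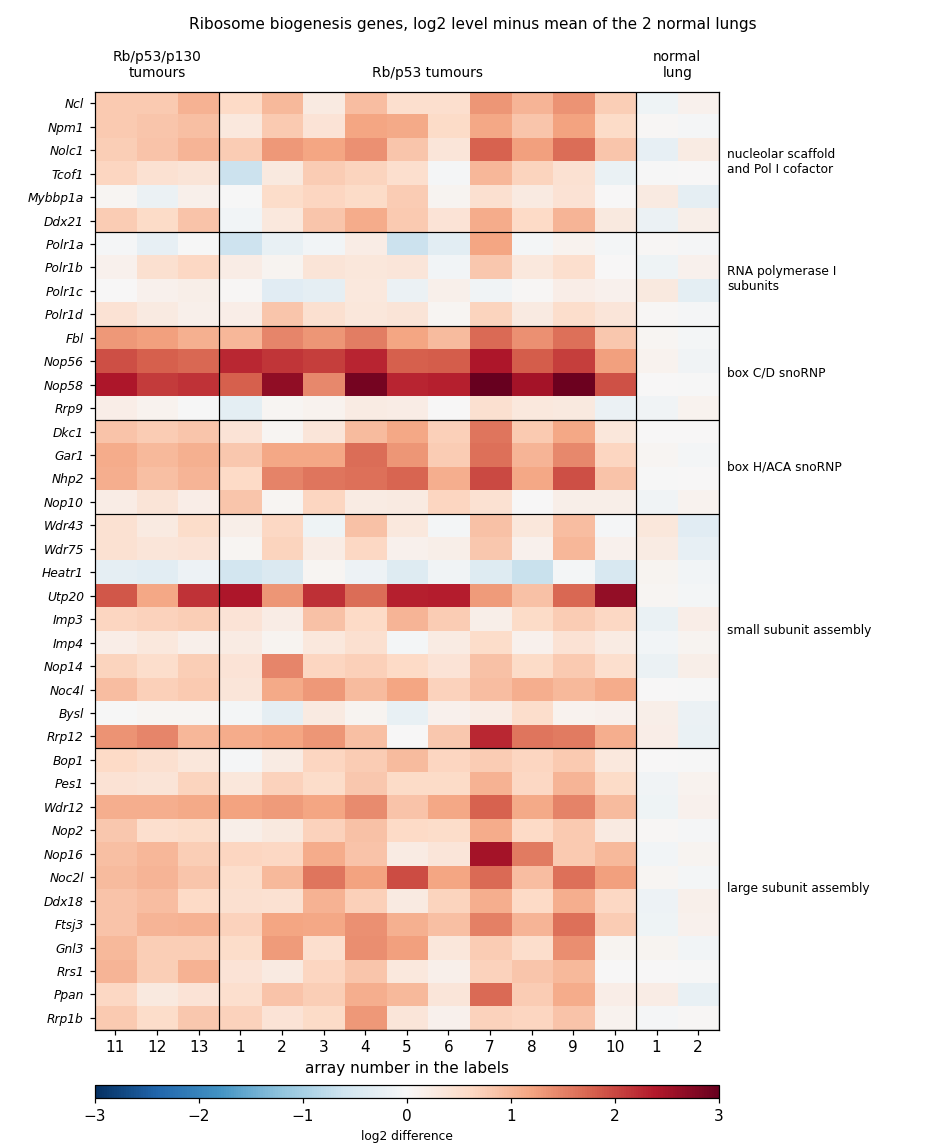
Each cell is the log2 level of a gene (rows, by role) in an array (columns, by group) minus the mean of the 2 normal lungs, red for higher and blue for lower. Nop58, Nop56 and Utp20 are the deepest red rows in both tumour groups, while the RNA polymerase I subunits and Heatr1 stay pale or blue in most tumours.

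All 3 Rb/p53/p130 tumours lay above both lungs for 32 of the 40 genes, where 32.8% of all genes did, and below both for 1, Heatr1, where 33.2% of all genes did. All 10 Rb/p53 tumours lay above both lungs for 22 of the 40, where 18.2% of all genes did, and below both for 0, where 20.2% of all genes did. The counts of called genes leaned on single arrays: without lung 1 they were 4 in Rb/p53/p130 tumours and 10 in Rb/p53 tumours. Over all 18193 genes the counts called higher fell too, from 2775 to 1657 and from 3328 to 2035 in these comparisons. In Rb/p53/p130 tumours the 4 of 40 left without lung 1 is thus near the share of all genes. Without lung 2, 7 were called in Rb/p53/p130 tumours, and leaving out tumour 11, 12 or 13 gave 9 each, while a fit of these tumours and the lungs alone called 27. Of all genes, 1912 were called higher without lung 2. Without tumours 11, 12 and 13 the counts were 2139, 2194 and 2394, and in the groups alone 4082. Tumour 12 is the one high in hepatocyte genes, and without it the median change was 0.77. With the Gapdh difference as a covariate 1 gene, Nop56, was called in each comparison, at 2.66 (adjusted p = 0.0150, limma) in Rb/p53/p130 tumours and 2.79 (adjusted p = 0.00699) in Rb/p53 tumours. Of all 18193 genes that fit called 531 and 610 higher in these comparisons, so 1 of 40 is near the share of all genes. The Gapdh difference lies apart in lung and tumour, and its part in the changes cannot be told apart from that of the tumours.

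The box C/D proteins, which carry the RNA methylation guides, held the highest changes. Called higher were 3 of these 4 genes in each comparison, with a median log2 change of 1.51 in Rb/p53/p130 tumours and 1.64 in Rb/p53 tumours. The shares of all genes called higher were 15.3% and 18.3%. Nop58, a core protein of the particle, had log2 levels of 11.48, 11.15 and 11.22 in Rb/p53/p130 tumours, a lowest, median and highest level of 10.50, 11.47 and 12.12 in Rb/p53 tumours, and 9.07 and 9.05 in normal lung. Every tumour lay above both lungs by more than 1 log2 unit. The log2 change was 2.22 ± 0.40 (SE, 4.67-fold, adjusted p = 0.000746, limma) in Rb/p53/p130 tumours and 2.37 ± 0.34 (5.18-fold, adjusted p = 7.24e-05) in Rb/p53 tumours. With the Gapdh difference as a covariate it was 0.75 (adjusted p = 0.691, limma) and 0.98 (adjusted p = 0.515) in these comparisons, and neither was called.

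Nop56, the core protein that pairs with Nop58, stood at 11.36, 11.22 and 11.16 in Rb/p53/p130 tumours, at 10.66, 11.50 and 11.86 (lowest, median, highest) in Rb/p53 tumours, and at 9.53 and 9.34 in normal lung, with no overlap of tumours and lung. It rose by 1.81 ± 0.26 (3.50-fold, adjusted p = 0.000139, limma) in Rb/p53/p130 tumours and by 1.98 ± 0.22 (3.95-fold, adjusted p = 8.84e-06) in Rb/p53 tumours. Fbl, fibrillarin, the methyltransferase of the particle, had levels of 11.31, 11.25 and 11.08 in Rb/p53/p130 tumours, of 10.81, 11.35 and 11.72 (lowest, median, highest) in Rb/p53 tumours, and of 10.08 and 9.94 in normal lung. The tumours again lay wholly above the lungs. Fbl rose by 1.20 ± 0.24 (2.30-fold, adjusted p = 0.00184, limma) in Rb/p53/p130 tumours and by 1.30 ± 0.21 (2.46-fold, adjusted p = 0.000193) in Rb/p53 tumours. Rrp9, a protein specific to the U3 particle, was not called, at 0.10 ± 0.19 and 0.13 ± 0.16 in these comparisons. The probe sets of Nop56 and Fbl carry the suffix _s, which the maker gives to sets that can match more than 1 transcript.

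**Figure D2:**
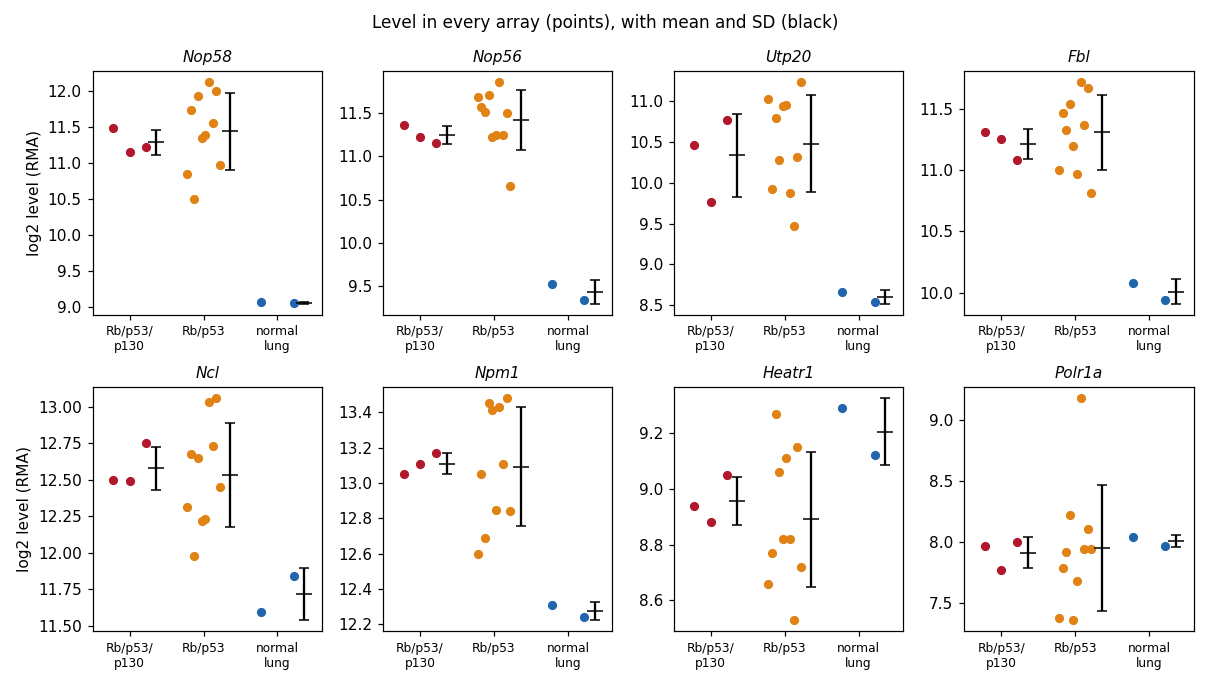
Points are log2 levels in each array for 8 genes, with black bars for mean and SD (3 Rb/p53/p130 tumours, 10 Rb/p53 tumours, 2 normal lungs; each panel has its own axis, which does not start at 0). In the panels of Nop58, Nop56, Utp20, Fbl, Ncl and Npm1 all tumours lie above both lungs, and in those of Heatr1 and Polr1a the Rb/p53 tumours overlap the lungs.

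The box H/ACA proteins, which carry the pseudouridine guides, moved less evenly by their brightest probe sets. Called higher were 2 of 4 in each comparison, Gar1 and Nhp2, both structural proteins of the particle. The shares of all genes called higher were 15.3% in Rb/p53/p130 tumours and 18.3% in Rb/p53 tumours. Nhp2 rose by 1.00 ± 0.34 (adjusted p = 0.0459, limma) in Rb/p53/p130 tumours and by 1.41 ± 0.29 (adjusted p = 0.00166) in Rb/p53 tumours. Gar1 rose by 1.06 ± 0.28 (adjusted p = 0.0113, limma) and 1.17 ± 0.24 (adjusted p = 0.00135) in these comparisons. Dkc1, the pseudouridine synthase dyskerin, lay above both lungs in every tumour but missed the threshold, with a change of 0.82 ± 0.35 (adjusted p = 0.107, limma) in Rb/p53/p130 tumours and 0.76 ± 0.30 (adjusted p = 0.0668) in Rb/p53 tumours. Nop10, the smallest protein of the particle, was at 0.27 ± 0.22 and 0.35 ± 0.19.

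Of the 6 nucleolar scaffold and polymerase I cofactors, 2 were called in Rb/p53/p130 tumours and 3 in Rb/p53 tumours. The shares of all genes called higher were 15.3% and 18.3%. Ncl, nucleolin, an abundant RNA-binding protein of the nucleolus, had log2 levels of 12.50, 12.49 and 12.75 in Rb/p53/p130 tumours, of 11.98, 12.55 and 13.06 (lowest, median, highest) in Rb/p53 tumours, and of 11.59 and 11.84 in normal lung. The lowest tumour lay just above the higher lung. Ncl rose by 0.86 ± 0.28 (1.82-fold, adjusted p = 0.0335, limma) in Rb/p53/p130 tumours and by 0.82 ± 0.24 (1.76-fold, adjusted p = 0.0148) in Rb/p53 tumours. Npm1, nucleophosmin, a chaperone of ribosomal proteins, had levels of 13.05, 13.11 and 13.17 in Rb/p53/p130 tumours, of 12.60, 13.08 and 13.48 (lowest, median, highest) in Rb/p53 tumours, and of 12.31 and 12.24 in normal lung. These groups too did not overlap. Npm1 rose by 0.84 ± 0.26 (1.79-fold, adjusted p = 0.0265, limma) and 0.82 ± 0.22 (1.76-fold, adjusted p = 0.00932).

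With the Gapdh difference as a covariate the changes of Ncl were -0.08 in each comparison, and those of Npm1 -0.05 in Rb/p53/p130 tumours and -0.02 in Rb/p53 tumours, so the direction of both rests on that choice. Nolc1, a chaperone of nucleolar particles, was called in Rb/p53 tumours (1.14 ± 0.29, adjusted p = 0.00675, limma) and stood at 0.88 ± 0.34 (adjusted p = 0.0732) in Rb/p53/p130 tumours. Mybbp1a, a nucleolar protein that holds back polymerase I, had levels of 10.54, 10.31 and 10.63 in Rb/p53/p130 tumours, of 10.46, 10.94 and 11.23 (lowest, median, highest) in Rb/p53 tumours, and of 10.74 and 10.22 in normal lung. Its groups overlapped, and its change was 0.02 ± 0.24 in Rb/p53/p130 tumours and 0.38 ± 0.20 in Rb/p53 tumours. Tcof1 (treacle, a polymerase I cofactor) and Ddx21 (an RNA helicase) were not called, at 0.49 ± 0.37 and 0.73 ± 0.31 in Rb/p53/p130 tumours and 0.34 ± 0.32 and 0.64 ± 0.26 in Rb/p53 tumours.

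The 40 genes hold 4 RNA polymerase I subunits, Polr1a to Polr1d, and other subunits were measured only within the wider list of factors below. None of Polr1a to Polr1d was called in either comparison by limma. Of these 4, 0 and 1 (Polr1d, in Rb/p53 tumours) had an unadjusted p under 0.05, where 41.5% of all genes had one in Rb/p53/p130 tumours and 47.2% in Rb/p53 tumours. For Polr1d, a subunit shared with polymerase III, the result depended on the probe set. Its brightest set, with the suffix _x, gave 0.28 ± 0.19 (adjusted p = 0.322, limma) in Rb/p53/p130 tumours and 0.41 ± 0.16 (adjusted p = 0.0631) in Rb/p53 tumours. Of its 3 other sets 0 were called in Rb/p53/p130 tumours and 2 in Rb/p53 tumours (0.87 and 0.74, adjusted p = 0.00378 and 0.00633), and the average of its sets gave 0.46 (adjusted p = 0.0510) and 0.58 (adjusted p = 0.00473) in these comparisons. The median change of these 4 subunits was 0.19 in Rb/p53/p130 tumours and 0.15 in Rb/p53 tumours. Polr1a, the largest subunit, had levels of 7.97, 7.77 and 8.00 in Rb/p53/p130 tumours, of 7.36, 7.93 and 9.18 (lowest, median, highest) in Rb/p53 tumours, and of 8.04 and 7.97 in normal lung. The lungs lay inside the range of the Rb/p53 tumours, of which tumour 7 was the highest. The change of Polr1a was -0.09 ± 0.38 (adjusted p = 0.902, limma) in Rb/p53/p130 tumours and -0.06 ± 0.32 (adjusted p = 0.922) in Rb/p53 tumours, with 95% intervals of -0.91 to 0.72 and -0.75 to 0.64. Polr1c, which polymerase I shares with polymerase III, had levels of 10.18, 10.31 and 10.35 in Rb/p53/p130 tumours, of 9.83, 10.22 and 10.49 (lowest, median, highest) in Rb/p53 tumours, and of 10.47 and 9.89 in normal lung. The lungs spanned nearly all tumours, and the 95% interval of its change was -0.34 to 0.54 in Rb/p53/p130 tumours and -0.37 to 0.37 in Rb/p53 tumours.

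The 10 small-subunit factors were called higher in 3 cases in Rb/p53/p130 tumours and in 5 in Rb/p53 tumours, with a median change of 0.53 and 0.50. The shares of all genes called higher were 15.3% and 18.3%, and 23.8% and 28.1% among genes read by bright probe sets. With so few genes in each role, such counts are no result about a role. Utp20, a large scaffold protein of the small-subunit precursor, had levels of 10.47, 9.77 and 10.77 in Rb/p53/p130 tumours, of 9.47, 10.56 and 11.24 (lowest, median, highest) in Rb/p53 tumours, and of 8.66 and 8.54 in normal lung. Every tumour was above both lungs, with a wide spread among tumours. Utp20 rose by 1.74 ± 0.47 (3.33-fold, adjusted p = 0.0134, limma) in Rb/p53/p130 tumours and by 1.88 ± 0.40 (3.69-fold, adjusted p = 0.00197) in Rb/p53 tumours. With the Gapdh difference as a covariate it was 2.70 (adjusted p = 0.184, limma) and 2.80 (adjusted p = 0.123) in these comparisons, and neither was called.

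Noc4l and Imp3, both parts of small-subunit precursors, were called in each comparison. Noc4l rose by 0.81 ± 0.22 (adjusted p = 0.0128, limma) in Rb/p53/p130 tumours and 0.97 ± 0.18 (adjusted p = 0.000857) in Rb/p53 tumours, and Imp3 by 0.70 ± 0.22 (adjusted p = 0.0342) and 0.60 ± 0.19 (adjusted p = 0.0244). Rrp12, an export factor in yeast, had levels of 8.00, 8.13 and 7.66 in Rb/p53/p130 tumours, of 6.66, 7.81 and 8.92 (lowest, median, highest) in Rb/p53 tumours, and of 6.85 and 6.47 in normal lung. Among tumours only number 5 fell below the higher lung. The change of Rrp12 was 1.27 ± 0.45 (2.41-fold, adjusted p = 0.05002, limma, not called) in Rb/p53/p130 tumours and 1.19 ± 0.38 (2.28-fold, adjusted p = 0.0258) in Rb/p53 tumours. Nop14, called in Rb/p53 tumours alone, was at 0.64 ± 0.25 in Rb/p53/p130 tumours and 0.70 ± 0.21 in Rb/p53 tumours.

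Heatr1, a factor needed for ribosomal RNA transcription and early processing, was the gene with the lowest change in both comparisons. Its levels were 8.94, 8.88 and 9.05 in Rb/p53/p130 tumours, 8.53, 8.82 and 9.27 (lowest, median, highest) in Rb/p53 tumours, and 9.29 and 9.12 in normal lung. The Rb/p53/p130 tumours lay below both lungs, and no Rb/p53 tumour lay above both. Neither change passed the test, at -0.25 ± 0.20 (adjusted p = 0.407, limma) in Rb/p53/p130 tumours and -0.32 ± 0.17 (adjusted p = 0.172) in Rb/p53 tumours. The remaining small-subunit factors, Wdr43, Wdr75, Imp4 and Bysl, were not called, with changes of 0.03 to 0.42 in Rb/p53/p130 tumours and 0.08 to 0.39 in Rb/p53 tumours.

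Of the 12 large-subunit factors, 5 were called higher in Rb/p53/p130 tumours and 8 in Rb/p53 tumours, and all 12 had a positive change in each comparison. The median change was 0.80 in Rb/p53/p130 tumours and 0.75 in Rb/p53 tumours. The shares of all genes called higher were 15.3% and 18.3%. Bop1, Pes1 and Wdr12 form 1 complex needed for the large subunit, and Wdr12 rose most of these, by 1.11 ± 0.21 (2.15-fold, adjusted p = 0.00126, limma) in Rb/p53/p130 tumours and 1.24 ± 0.18 (2.36-fold, adjusted p = 8.47e-05) in Rb/p53 tumours. Its levels were 8.49, 8.50 and 8.54 in Rb/p53/p130 tumours, 8.26, 8.59 and 9.16 (lowest, median, highest) in Rb/p53 tumours, and 7.26 and 7.54 in normal lung, with no overlap. Pes1 and Bop1 were called in Rb/p53 tumours, by 0.68 ± 0.16 (adjusted p = 0.00427, limma) and 0.57 ± 0.20 (adjusted p = 0.0431), and stood at 0.49 ± 0.19 and 0.48 ± 0.24 in Rb/p53/p130 tumours, not called. Wdr12, Pes1 and Bop1 were chosen after their values were seen, as were Rrs1, Nhp2, Gar1, Dkc1 and the other genes here that are neither at an end of a ranking nor named with all their levels.

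Noc2l and Ftsj3, factors of large-subunit maturation, were called in each comparison, Noc2l at 0.93 ± 0.32 (adjusted p = 0.0480, limma) in Rb/p53/p130 tumours and 1.30 ± 0.28 (adjusted p = 0.00200) in Rb/p53 tumours, and Ftsj3 at 0.98 ± 0.25 (adjusted p = 0.00895) and 1.13 ± 0.21 (adjusted p = 0.000726). The helicase Ddx18 rose by 0.79 ± 0.24 (adjusted p = 0.0231, limma) and 0.70 ± 0.20 (adjusted p = 0.0146). Rrs1 was called in Rb/p53/p130 tumours (0.93 ± 0.25, adjusted p = 0.0141, limma) and stood at 0.51 ± 0.22 (adjusted p = 0.0854) in Rb/p53 tumours. Nop2, an RNA methyltransferase, and Ppan were called in Rb/p53 tumours alone, and Nop16, Gnl3 (nucleostemin, a GTP-binding protein) and Rrp1b in neither. Nop16 had levels of 8.36, 8.45 and 8.19 in Rb/p53/p130 tumours, of 7.70, 8.28 and 9.96 (lowest, median, highest) in Rb/p53 tumours, and of 7.37 and 7.55 in normal lung. All tumours lay above both lungs, and its change of 0.87 ± 0.48 (adjusted p = 0.218, limma) in Rb/p53/p130 tumours and 0.97 ± 0.41 (adjusted p = 0.0877) in Rb/p53 tumours missed the threshold beside the wide spread of the Rb/p53 tumours.

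**Figure D3:**
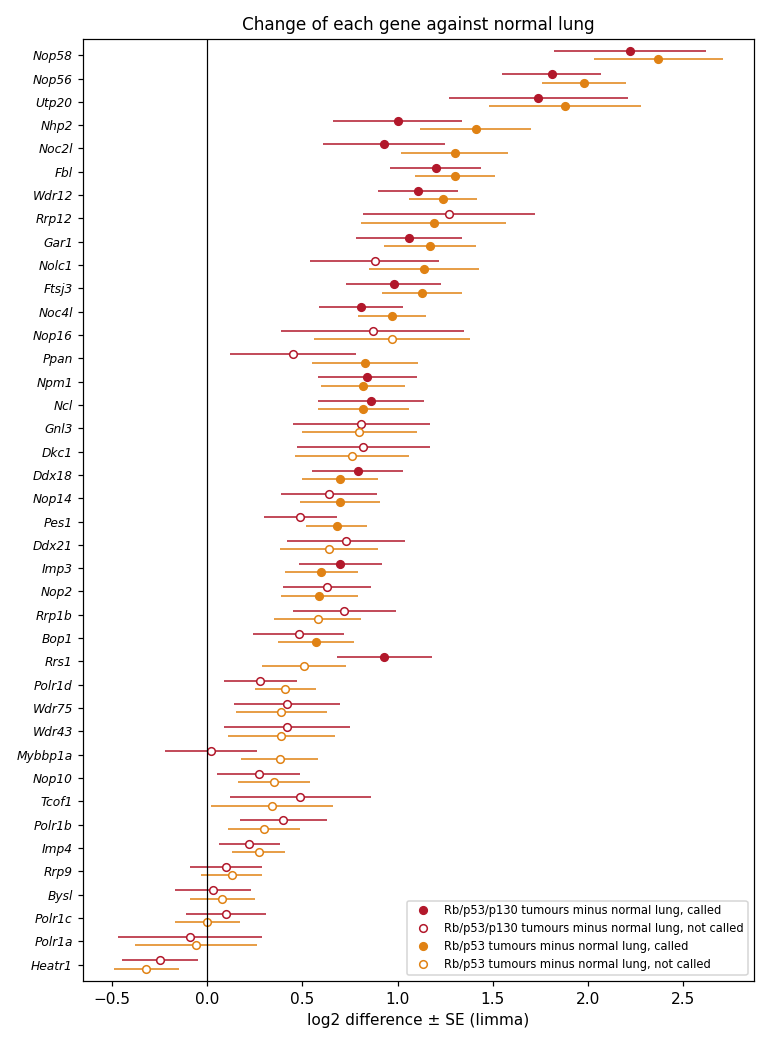
Points are log2 changes against normal lung with limma's SE for each of the 40 genes, ordered by the change in Rb/p53 tumours, filled where called and open where not. Nop58, Nop56 and Utp20 stand at the top in both comparisons, and Heatr1 is lowest at -0.25 in Rb/p53/p130 tumours and -0.32 in Rb/p53 tumours.

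Besides the brightest probe sets, 28 of the genes had 46 other probe sets. Of these, 8 were called higher in Rb/p53/p130 tumours and 16 in Rb/p53 tumours, and 0 were called lower in each. By their brightest probe sets, 15.3% and 18.3% of all genes were called higher in these comparisons, and 15.6% and 20.5% lower. The 8 of 46 in Rb/p53/p130 tumours is near the share called higher. Genes called only by such another probe set were Dkc1 and Nolc1 in Rb/p53/p130 tumours, and Dkc1, Mybbp1a, Nop10, Polr1d, Rrp1b and Rrs1 in Rb/p53 tumours.

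Between the tumour genotypes none of the 40 genes was called, where 0.0715% of all genes were. Changes ran from -0.41 to 0.42, and for 40 of 40 the 95% interval of the difference lay within -0.95 and 0.81, so a difference past 1 log2 unit lies outside the interval of each. For 0 of 40 did all Rb/p53/p130 tumours lie above or below all Rb/p53 tumours, where 1.1% of all genes lay above and 0.868% below. The smallest p belonged to Rrs1, a factor of 5S particle assembly in yeast, with levels of 10.57, 10.27 and 10.59 in Rb/p53/p130 tumours, of 9.56, 10.07 and 10.51 (lowest, median, highest) in Rb/p53 tumours, and of 9.55 and 9.53 in normal lung. The tumour groups overlapped, and the difference was 0.42 ± 0.18 (unadjusted p = 0.0380, adjusted p = 0.456, limma). It was the 1 gene of 40 (2.5%) with an unadjusted p under 0.05, where 7.26% of all genes had one. Genotype and age after Cre cannot be told apart in this comparison.

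Among the Rb/p53 tumours the genes varied with SDs of 0.19 to 0.66, median 0.33, where the median over all genes was 0.28. Nop16 (0.66), Utp20 (0.59) and Rrp12 (0.59) varied most and Imp4 least (0.19). The 40 genes tended to move together: over their 780 pairs the mean correlation across the 10 tumours was 0.36 and the median 0.45, and 635 pairs were positive, while the mean over pairs of all genes was 0.011. For 31 genes the correlation with the mean of the others was above 0.5, with Ftsj3 (0.96), Gar1 and Fbl (0.92 each) at the top. Utp20 (-0.61), Nop10 (-0.31) and Imp3 (-0.20) ran below 0. These values describe 10 arrays whose normalisation and RNA they share.

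The mean level of the 40 genes was 9.74, 9.66 and 9.72 in Rb/p53/p130 tumours 11, 12 and 13, between 9.48 and 10.14 in Rb/p53 tumours, and 9.01 and 8.99 in normal lung. It was highest in tumour 7 (10.14), followed by tumours 9 (10.03) and 4 (9.95), and lowest in tumour 1 (9.48). Tumour 7 held the highest Rb/p53 level of 17 of the 40 genes, and tumour 1 the lowest of 13. Tumour 7 also had the highest mean of 24 G2/M genes, markers of dividing cells (11.37, against 10.09 to 10.99 in the other Rb/p53 tumours), and an alveolar type 2 mean of 9.90, near the low end. The part of these differences in the means was not tested.

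Of the MYC family, Mycl was the gene called higher in both comparisons. Its log2 levels were 12.46, 10.86 and 11.82 in Rb/p53/p130 tumours, 9.39, 11.12 and 13.36 (lowest, median, highest) in Rb/p53 tumours, and 8.76 and 8.55 in normal lung. No tumour overlapped the lungs, and the change was 3.06 ± 0.99 (8.32-fold, adjusted p = 0.0343, limma) in Rb/p53/p130 tumours and 2.70 ± 0.84 (6.51-fold, adjusted p = 0.0225) in Rb/p53 tumours. Mycn had levels of 7.76, 7.73 and 7.77 in Rb/p53/p130 tumours, of 6.11, 7.38 and 12.19 (lowest, median, highest) in Rb/p53 tumours, and of 6.19 and 6.21 in normal lung. All 3 Rb/p53/p130 tumours and 9 of the 10 Rb/p53 tumours lay above both lungs in Mycn. Tumour 7 stood alone at the top, and the changes of 1.55 ± 1.30 (adjusted p = 0.440, limma) in Rb/p53/p130 tumours and 1.66 ± 1.10 (adjusted p = 0.285) in Rb/p53 tumours did not pass beside this wide spread. Myc had levels of 7.95, 8.16 and 8.04 in Rb/p53/p130 tumours, of 7.07, 7.84 and 8.61 (lowest, median, highest) in Rb/p53 tumours, and of 7.74 and 7.77 in normal lung. Its lungs lay within the Rb/p53 range, with changes of 0.30 ± 0.36 and 0.03 ± 0.31 (adjusted p = 0.619 and 0.961). Of the other genes measured in the wider network around MYC and Max, Mxd3 rose (2.47 ± 0.41 in Rb/p53/p130 tumours and 2.30 ± 0.35 in Rb/p53 tumours, adjusted p = 0.000388 and 0.000119, limma) and Mlxip fell (-0.99 ± 0.21 and -0.87 ± 0.18, adjusted p = 0.00299 and 0.00163). The remaining 7, Max among them, were not called.

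**Figure D4:**
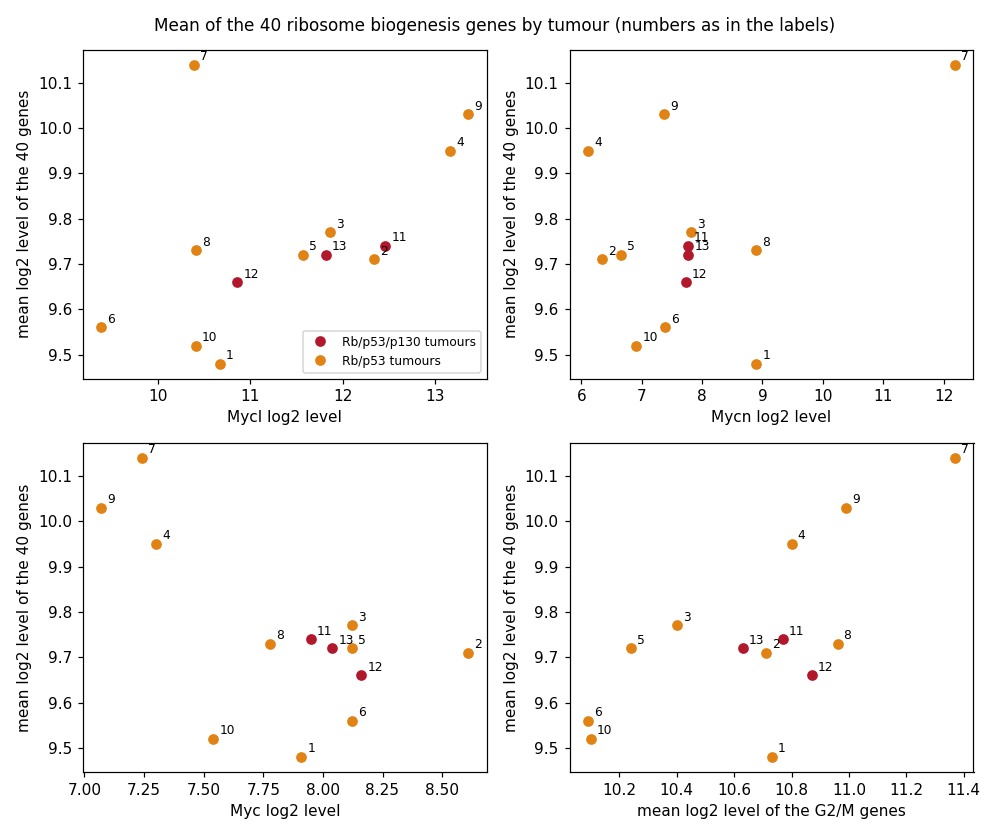
Points are tumours, numbered as labelled, with the mean log2 level of the 40 genes on the vertical axis against the log2 level of Mycl, Mycn, Myc and the mean of the G2/M genes. Tumours 4 and 9, high in Mycl, and tumour 7, high in Mycn, have the 3 highest means, between 9.95 and 10.14. Others do not follow: tumours 11 and 2, at 12.46 and 12.34 in Mycl, have means of 9.74 and 9.71. Tumour 1, at 8.90 in Mycn, has 9.48.

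To ask how the genes go with MYC family levels, each probe set was fitted in limma against the level of 1 MYC gene among the 10 Rb/p53 tumours. None of the 40 was called on Mycl, Mycn or Myc by the adjusted p, where 0.0055%, 0.011% and 0.0055% of all genes were, which is the MYC gene itself each time and, for Mycn, also Corin. At an unadjusted p under 0.05 the counts were 7, 4 and 6 of 40 (17.5%, 10% and 15%), where 4.23%, 12.6% and 8.63% of all genes were. The smallest adjusted p was 0.984, 0.140 and 0.520. In all, 169 relations between a gene and a MYC level or the G2/M mean were computed.

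The slope on Mycl was positive for 35 of the 40 genes, where 45.8% of all genes were positive, with a median of 0.08 log2 units per log2 unit of Mycl. Other lists leaned the same way: 22 of 24 G2/M genes, 85 of 105 further ribosome biogenesis factors, 40 of 44 ribosomal proteins and 18 of 20 MYC-responsive metabolic genes had positive slopes. Positive slopes were found for 2 of 11 neuroendocrine and 1 of 7 alveolar type 2 genes. Of the 40, the gene with the smallest p was Gnl3, with levels of 10.94 in tumours 4 and 9, where Mycl stood highest, and 9.89 in tumour 6, where it stood lowest. Its slope was 0.30 ± 0.07 (adjusted p = 0.984, limma), with Pearson r = 0.83 (permutation p = 0.00453) and Spearman rho = 0.76 (permutation p = 0.0152) over 10 tumours, and r = 0.69 without tumours 9 and 4, the 2 farthest from the median. Over the 40 genes, without those 2 tumours 24 slopes were positive and the median was 0.03. Over all alternatives, the G2/M and alveolar type 2 covariates among them, it ran from 0.03 to 0.15. With Mycl and Mycn as 2 terms in 1 fit, an alternative chosen after seeing the data, 35 slopes were positive for Mycl and 35 for Mycn, with medians of 0.15 and 0.11 and 0 called. Over all genes the medians in that fit were -0.011 and -0.007. It called 2 genes higher on Mycl, and 37 higher and 57 lower on Mycn. The 2-term fit was not repeated without tumour 7, which stood far above the others in Mycn.

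The slope on Mycn was positive for 32 genes, where 48.4% of all genes were positive, with a median of 0.04. This rested on tumour 7: without it 9 slopes were positive and the median was -0.07. Nop16 had the smallest p, with 9.96 in tumour 7, where Mycn was highest, and 8.31 in tumour 4, where it was lowest. Its slope was 0.31 ± 0.07 (adjusted p = 0.140, limma), with r = 0.84 (permutation p = 0.0113) and rho = 0.56 (permutation p = 0.0971) over 10 tumours, and r = 0.11 without tumours 7 and 8. Rrp12 followed, with a slope of 0.24 ± 0.07 (adjusted p = 0.258, limma), r = 0.73 and rho = 0.65 (permutation p = 0.0252 and 0.0483), and r = 0.30 without tumours 7 and 8.

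The slope on Myc ran the other way and was positive for 7 of the 40 genes, where 57.3% of all genes were positive, with a median of -0.30. Slopes on Myc were positive for 7 of 7 alveolar type 2 genes (median 0.98), 10 of 10 endothelial genes (median 0.76), 9 of 9 lymphocyte genes (median 0.30), 7 of 10 macrophage and dendritic cell genes (median 0.35) and 3 of 9 fibroblast and smooth muscle genes (median -0.13). For the G2/M genes 0 of 24 were positive (median -0.41), and none of these marker genes was called. With the G2/M mean as a covariate the median slope of the 40 was -0.16, and with the alveolar type 2 mean it was -0.25. The part of the other marker genes was not tested. Imp4, an assembly factor of the small subunit, had the smallest p, with 9.34 in tumour 9, where Myc was lowest, and 8.97 in tumour 2, where it was highest. Its slope was -0.30 ± 0.10 (adjusted p = 0.520, limma), with r = -0.77 (permutation p = 0.00991) and rho = -0.79 (permutation p = 0.00947) over 10 tumours, and r = -0.73 without tumours 9 and 2. Tumours 9, 7 and 4, the 3 lowest in Myc at 7.07, 7.24 and 7.30, were those with the highest mean of the 40 genes. Gnl3, Nop16, Rrp12 and Imp4 were picked here by their p-values.

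**Figure D5:**
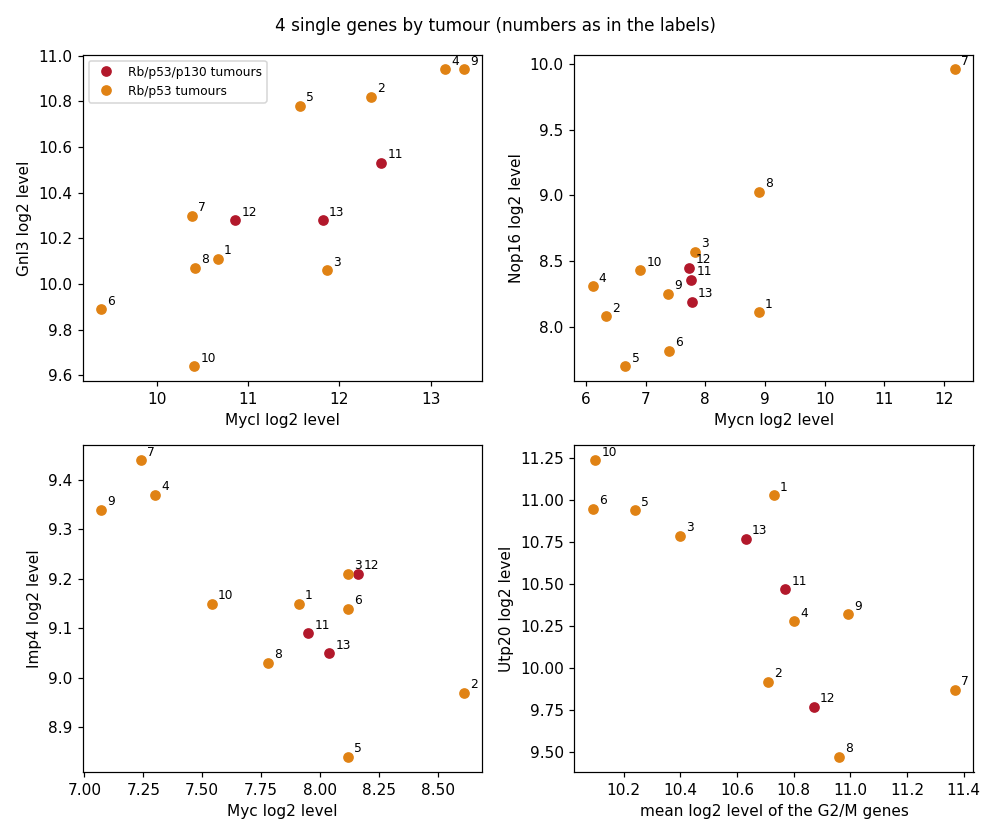
Points are tumours, numbered as labelled, with log2 levels of Gnl3 against Mycl, Nop16 against Mycn, Imp4 against Myc and Utp20 against the mean of the G2/M genes. Tumour 7 stands apart in Mycn (12.19) and Nop16 (9.96), and Utp20 is highest in tumour 10 (11.24) and lowest in tumour 8 (9.47).

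On the mean level of the G2/M genes, the same kind of fit called 4 of the 40 genes higher, Ncl, Nolc1, Fbl and Ppan, where 2.67% of all genes were, and 1 lower, Utp20, where 4.77% were. The slope was positive for 34 genes, where 46.0% of all genes were, with a median of 0.46. Nolc1 had a slope of 0.87 ± 0.19 (adjusted p = 0.0272, limma), with r = 0.84 and rho = 0.82 over 10 tumours (permutation p = 0.00262 and 0.00576), and r = 0.69 without tumours 7 and 6. Utp20 had a slope of -1.11 ± 0.28 (adjusted p = 0.0450, limma), with r = -0.79 and rho = -0.72 (permutation p = 0.00870 and 0.0237), and r = -0.76 without those tumours. The calls leaned on single tumours, with 0 left without tumour 6, 7, 9 or 10, 1 without tumour 3, 4 or 5 and 2 without tumour 2. Over all genes 486 were called higher on the G2/M mean, and 171, 111, 343 and 194 without tumours 6, 7, 9 and 10. The alveolar type 2 genes ran against the G2/M mean, with 7 of 7 called lower on it, and their part in these slopes was not tested.

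Among further factors of ribosome biogenesis, such as exosome subunits and helicases, 40 of 105 were called higher and 1 lower in Rb/p53/p130 tumours, and 56 higher and 1 lower in Rb/p53 tumours, with medians of 0.52 and 0.56. The highest changes called were those of Exosc10 and Exosc2, of the RNA exosome, and Dimt1, an RNA methyltransferase, at 1.86 ± 0.46, 1.68 ± 0.24 and 1.65 ± 0.32 in Rb/p53/p130 tumours and 1.90 ± 0.39, 1.88 ± 0.21 and 1.55 ± 0.27 in Rb/p53 tumours (adjusted p = 0.00149, 6.75e-06 and 0.000412 for Rb/p53 tumours, limma). Of 44 ribosomal proteins measured through a probe set of 1 gene, 6 were called higher and 1 lower in Rb/p53/p130 tumours, where 15.3% and 15.6% of all genes were, and 10 higher and 1 lower in Rb/p53 tumours, where 18.3% and 20.5% were. Their counts of higher genes are near those shares, and their median changes were 0.22 and 0.20, against -0.02 over all genes in each. Most of the changes were small but positive, in 42 of 44 and 39 of 44, where 48.3% and 47.8% of all genes were positive. Rpl11 rose (0.74 ± 0.23 and 0.84 ± 0.19, adjusted p = 0.0283 and 0.00376, limma), Rps26 rose (0.64 ± 0.20 and 0.57 ± 0.17, adjusted p = 0.0303 and 0.0197) and Rpl27a fell (-0.89 ± 0.24 and -0.69 ± 0.21, adjusted p = 0.0147 and 0.0194). Many of their messages lie near the bright end of the array and have near-identical pseudogenes, so single values are uncertain.

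Metabolic genes known to respond to MYC were called higher in 12 of 20 cases in Rb/p53/p130 tumours and 13 of 20 in Rb/p53 tumours, with 1 lower in each and medians of 1.15 and 1.11. Of all genes, 15.3% and 18.3% were called higher, with a median of -0.02 in each comparison. This list too was chosen with earlier results of these data known. Srm, spermidine synthase, rose by 2.06 ± 0.72 (adjusted p = 0.0497, limma) in Rb/p53/p130 tumours and 2.34 ± 0.61 (adjusted p = 0.00848) in Rb/p53 tumours, and Nme1, a nucleoside diphosphate kinase, by 1.86 ± 0.26 (adjusted p = 9.01e-05) and 2.03 ± 0.22 (adjusted p = 5.67e-06). Of the G2/M genes 24 of 24 were higher in each comparison, with median log2 changes of 4.68 and 4.51, above the change of each of the 40 ribosome biogenesis genes.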

How the data were processed

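Total RNA from 13 tumours and 2 normal lungs was extracted with Trizol, copied in amplification rounds (RiboAmp) and put on Affymetrix arrays of the mouse genome, per the labels. The authors deposited log2 levels from RMA, named without a version in the submitters' processing notes. RMA brings all arrays to nearly 1 distribution and would hide a shift common to most genes. Tests covered 45037 of 45101 probe sets, without 64 controls; 34945 had 1 gene symbol, 932 several and 9160 none. A gene was read by its brightest probe set (18193 genes). No 2 arrays held identical values.

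limma 3.58.1 (R 4.3.3; lmFit, eBayes) was fitted to the 3 groups in 1 fit, and to the 10 Rb/p53 tumours with a MYC gene's level, or the mean of 24 G2/M genes, as a continuous term. Benjamini-Hochberg adjustment ran over all probe sets, with calls at 0.05. Errors are SE for changes and SD for levels. Permutation tests were two-sided with 100000 permutations. The fits were tested on simulated data. Named with full values were Ncl, Npm1, Fbl, the 3 highest and 3 lowest changes per comparison, the 3 highest SDs and the MYC family; Wdr12 and Rrs1 were added after their values were seen. The members and lists were chosen with earlier results of these data known. Alternatives left out each array, renormalised by quantiles or medians, kept bright probe sets, fitted the compared groups alone, took a robust, trended prior, used the Gapdh difference, G2/M mean or type 2 mean as covariate, averaged probe sets, left out suffixed probe sets, added the array number as a block, left out the 2 farthest tumours, or took all tumours. Of 323 entries of the other lists, 276 were measured and the rest not analysed here. Promoters came from RefSeq (GRCm38.p6), and figures from matplotlib 3.10.9 in Python 3.11.15.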

Additional observations from a re-analysis of the deposited data

Results flagged for a closer look

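Dixon's test for 1 value far from the rest was applied to 44 sets of Rb/p53 tumours, and 3 were picked out, where chance picks about 1 in 20. Polr1a stood at 9.18 in tumour 7, against 7.36 to 8.22 in the other Rb/p53 tumours. Nop14 stood at 9.46 in tumour 2, against 8.41 to 8.88. Mycn stood at 12.19 in tumour 7, against 6.11 to 8.90.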

How the results depend on the processing

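The direction of the 40 genes against normal lung, read as their median, was positive under every alternative run, from 0.50 to 0.80 in Rb/p53/p130 tumours and from 0.51 to 0.76 in Rb/p53 tumours, while the counts of calls moved. In Rb/p53/p130 tumours 27 were called with the compared groups alone and 1 with the Gapdh covariate, and leaving out single arrays gave 4 to 9. Those fits called 4082, 531 and 1657 to 2394 of all 18193 genes higher. With the Gapdh covariate, and without lung 1, the counts of the 40 were near the share of all genes. In Rb/p53 tumours 1 was called with the Gapdh covariate, and leaving out single arrays gave 10 to 24. There 610 and 2035 to 3398 of all genes were called higher. Array numbers are shared only by tumours 1 and 2 and lungs 1 and 2 and mark no pairing in the labels. With the array number as a replicate block 7 were called in Rb/p53 tumours, where 1685 of all genes were called higher. The Gapdh covariate reversed Ncl to -0.08 in each comparison, and Npm1 to -0.05 in Rb/p53/p130 tumours and -0.02 in Rb/p53 tumours. The cause was not tested. Outside the Gapdh covariate and the block, Fbl, Nop56, Nop58 and Wdr12 were called under every alternative in Rb/p53/p130 tumours. In Rb/p53 tumours 10 genes were called under every alternative that measured them: these 4 and Gar1, Nhp2, Utp20, Noc4l, Noc2l and Ftsj3. Gar1 has 1 probe set, with the suffix _s, so it was not measured where suffixed sets were left out. Fbl, Nop56 and Nhp2 were read there by another probe set. Between genotypes and on the Mycl, Mycn and Myc levels 0 were called under every alternative. On the G2/M mean, leaving out single tumours gave 0 to 6, where 111 to 566 of all genes were called higher and 287 to 944 lower. The 2 lungs limit every comparison with lung, and the 10 tumours limit the slopes.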
